A study of Mus musculus with 6 samples.

Results

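The 32 genes described here encode the enzymes that carry glucose to pyruvate, those of the pentose phosphate pathway, and the kinases that gate the entry of pyruvate into mitochondria. They were taken by gene symbol from the table of accessible regions (peaks), and the peaks annotated to each gene were summed. Of the 32 genes 31 had a peak within 100 kb of an annotated transcript start and 30 had a peak in the promoter class, which reaches 3 kb from such a start, out of 18503 genes with a peak in the whole series. Eno3 was not analysed here, and Fbp1 had no promoter peak in the table used. In all, 168 of 92864 peaks were annotated to these genes, of which 62 lay in the promoter class, 45 in introns and 47 in distal intergenic sequence.

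The data come from ATAC-seq, in which the transposase Tn5 cuts and tags open chromatin, so that the reads in a peak measure how accessible that stretch of DNA is. Both groups were wild-type cells sorted from tumours that the SB28 mouse glioma line formed in the brains of mice, and neither carried any other allele or agent named in the labels. Microglia (MG), macrophages that settle the brain before birth, were F4/80+ CD11b+ with low CD45 and low or no CD49d. Bone marrow derived macrophages (BMDM), which enter the tumour from blood, were F4/80+ CD11b+ CD45+ with high CD49d. Low or no LY6C and no LY6G were required of both. There were 3 libraries a group, and nothing in the labels ties them to separate animals, so the p-values speak of the variation among libraries, which could be technical. The series text gives the link between metabolism and gene expression in these cells as its question.

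In glycolysis the hexokinases trap glucose in the cell, phosphofructokinase commits it to breakdown, and the later enzymes draw ATP from it. The pentose phosphate pathway branches off after the hexokinase step and yields NADPH and ribose. Pyruvate dehydrogenase kinases switch off the enzyme that feeds pyruvate into mitochondria. Activated macrophages are known for a high flux through glycolysis, and resting microglia rely more on mitochondrial respiration. Accessibility near a gene is not a measure of its transcript, its protein or this flux.

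Reads in peaks ranged from 12531808 to 23601865 in MG and from 4910448 to 19727511 in BMDM, with BMDM 3 the shallowest. The counts below are divided by the authors' size factors (normalized counts), and 3 reads amount to between 1.64 and 5.95 of them, a limit that covers counting error only. BMDM 3 had the lowest value of the 6 libraries in 50.8% of all genes. The median gene had a log2 difference, BMDM minus MG, of -0.27, the median promoter one of -0.31 and the median peak one of -0.14. Without BMDM 3 these were -0.12, -0.13 and -0.081. For this reason the median gene, promoter or peak is subtracted from each difference given below (relative difference), while each p-value belongs to the unshifted difference. Of the markers tested, 3 of 12 microglial genes were higher in MG and 7 of 11 monocyte and macrophage genes were higher in BMDM (limma adjusted p under 0.05), with none in the other direction. Neural and glial markers were higher in MG in 6 of 13, and their summed level was 9616, 17820 and 12050 in MG 1, 2 and 3 against 6123 to 6747 in BMDM. Mbp alone held 3515 of the 9616 in MG 1 and 4140 of the 6747 in BMDM 1. It leaned to BMDM (relative difference 0.51, limma adjusted p = 0.727). Aqp4, of that list, had no peak in the table used. T and NK cell markers were higher in BMDM in 3 of 8 and neutrophil markers in 1 of 7. Endothelial markers were higher in MG in 1 of 6. In such bulk libraries a smaller share of cells with an open site and a less open site in every cell cannot be told apart.

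Most of these genes had a promoter peak called in both cell types, and no gene sum differed between the groups past the threshold. Summed over peaks within 100 kb, limma called 0 of 31 genes more open in BMDM and 0 more open in MG at an adjusted p under 0.05, where it called 2.14% and 3.51% of all genes. The voom form of limma also called 0 either way, where it called 277 and 303 of all 18246 genes. At an unadjusted p under 0.05 limma without voom had 1 gene higher in BMDM (Hk1) and 3 higher in MG (Eno2, Pdk3 and Tigar). Of all genes 6.24% and 15.6% were. Relative differences ran from -0.63 (Pfkm) to 0.95 (Hk1) with a median of 0.09, and 26 of 31 lay within 0.5 of the median gene, as did 68.6% of all genes. None of the 31 was past 1 in size, where 10.9% of all genes were. The median of the genes was 0.19 without BMDM 3 and -0.00141 without BMDM 1.

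Promoters on their own gave 1 call among 30, Pdk3, which was higher in MG, and 0 higher in BMDM (9.16% and 2.75% of all promoters). The median relative difference of the promoters was 0.09, and 25 of 30 lay within 0.5 of the median promoter, as did 71.6% of all. At this level limma relied almost wholly on the variance pooled over promoters, so a promoter's own variation barely enters its p-value. All 3 MG libraries lay above all 3 BMDM libraries in 6 promoters (Eno2, Pdk2, Pdk3, Pdk4, Pgls and Tigar), where 23% of all promoters did so. The reverse held for 0 promoters of the 30 and for 5.36% of all. None of the 30 was past 1 in size, where 11.5% of all promoters were.

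**Figure D1:**
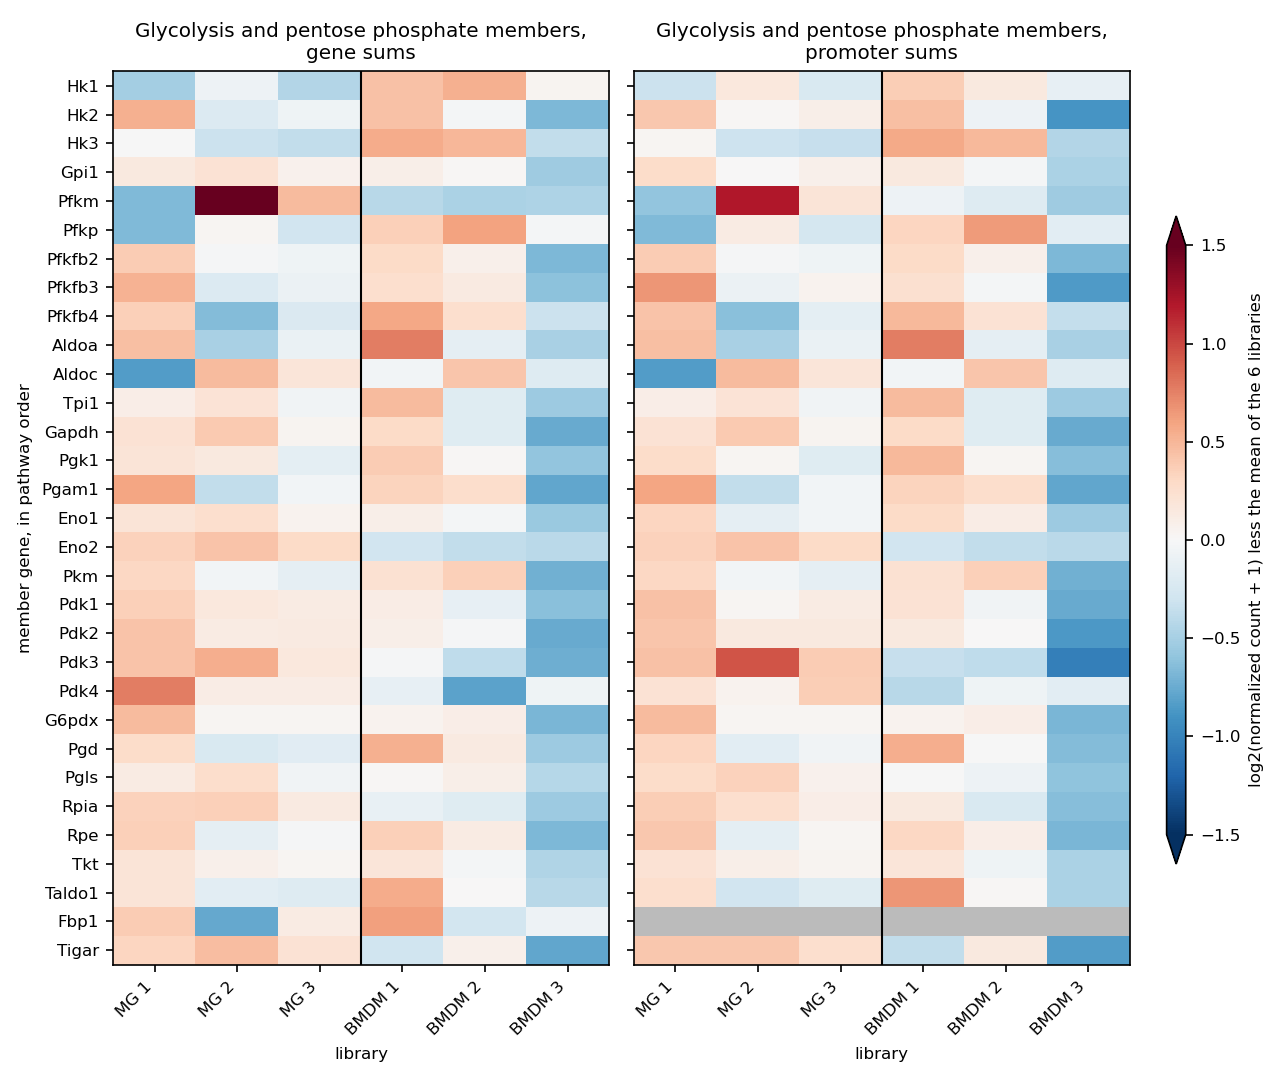
Each row is a gene in pathway order and each column a library; colour gives log2(normalized count + 1) less the mean of the 6 libraries, for sums within 100 kb (left) and promoter sums (right; grey: no promoter peak). The BMDM 3 column is the lowest in 24 of 31 gene sums and 24 of 30 promoter sums, and the Pfkm row is highest in MG 2.

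**Figure D2:**
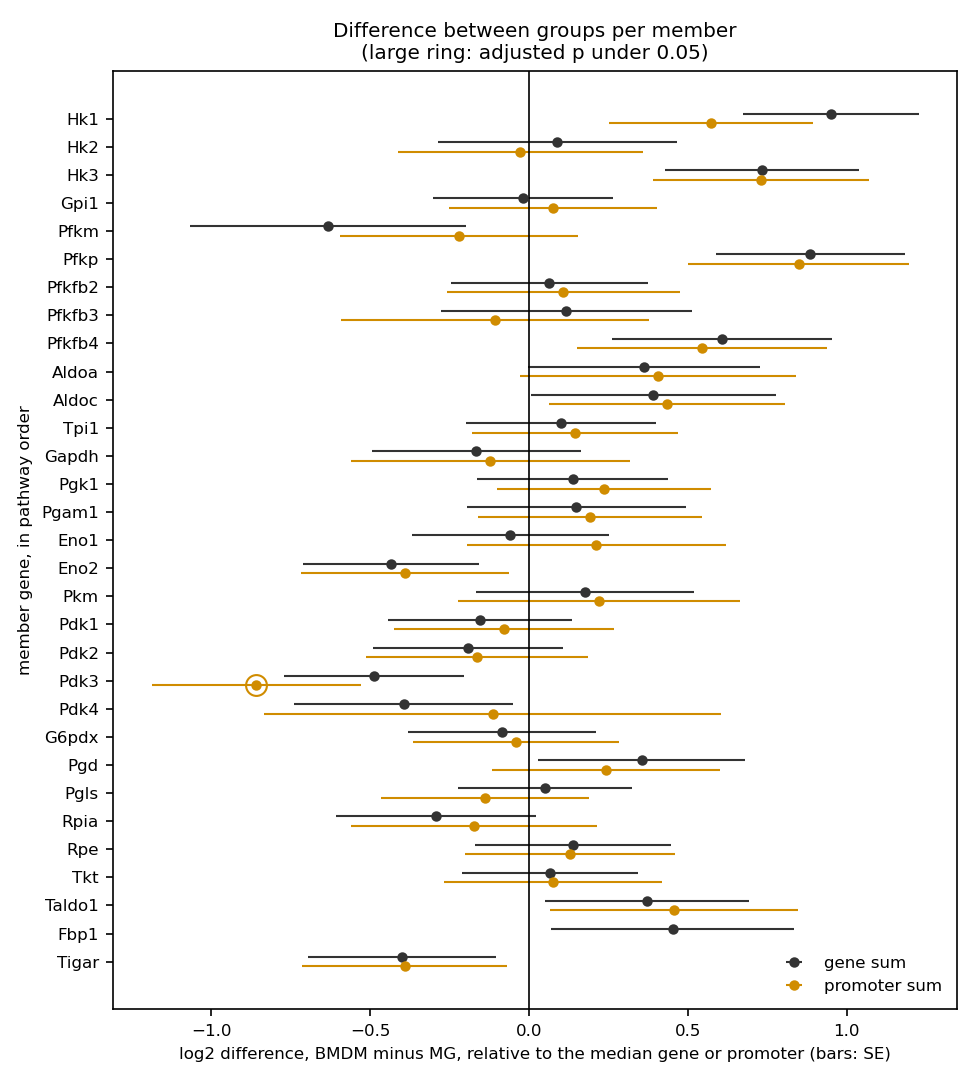
Points give each gene's log2 difference, BMDM minus MG, relative to the median gene (black) or promoter (orange), with bars of 1 SE. Most points lie within 0.5 of 0, Hk1 and Pfkp lie farthest to the right, and the ring marks the Pdk3 promoter, the only call.

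The promoters of most of these genes were more open than the median promoter. Per kb of promoter peak, their median was 387 normalized counts over the 6 libraries against 234 for all promoters, and 22 of 30 lay above the median promoter. Aldoa, the aldolase of most tissues, had the most open promoter of the set with 1036 per kb, the only one in the top 10% of all promoters. Taldo1 and Hk2 followed with 619 and 609 per kb. This measure takes in every promoter class peak of a gene and not its start peak alone, and a ranking by start peaks was not made. At the other end lay Pdk4 with 19.9, Pfkm with 88.2, Hk1 with 118 and Eno2 with 140 per kb. The place of Hk1 leaves out the peak over its RefSeq start, which the table gives to the antisense gene Hk1os: that peak had 687 per kb, and with it the Hk1 promoter had 375 per kb. In the peak lists that the authors called on each library, a promoter peak of the gene was present in all 6 lists for 26 of 30 genes. No share over all promoters is set beside this count, so it does not mark off the set. Aldoc, Hk1 and Pfkm were missing from the BMDM 3 list alone, which came from the shallowest library, and the Pdk4 promoter was in none. For Hk1 this again leaves out the peak over its RefSeq start, which had 781 normalized counts in BMDM 3.

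RefSeq (GRCm38.p6) held 48 start sites for the 32 genes, and 39 of these windows overlapped a peak. The 250 bases before the start were richer in G and C (median 58.8%) than over all 32851 windows (52.4%), and held a median of 13.5 CpG pairs against 6. The GC box GGGCGG stood in 54.2% of them (32.7% of all windows) and ACGTG, the core of the hypoxia response element, in 31.2% (16.6% of all), that is 15 windows of 11 genes. The E-box CACGTG, which contains ACGTG, was found in 8.33% (6.02%), CCAAT in 37.5% (33.8%) and the Ets core GGAAGT in 18.8% (19.7%). TATAAA was found in 2.08% (12.4%), 1 window of Eno2, and the AP-1 site TGANTCA in 2.08% (6.75%). All motifs were searched on both strands, and a match is a string of letters and not a shown binding site.

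The 6 promoters of the 30 in which all MG libraries lay above all BMDM libraries are printed here as a description. This pattern held for 23% of all promoters, so it does not mark off the 6 as a group. Only Pdk3 among them was called. Each line gives the 250 bases before the RefSeq start (GRCm38.p6), 5′ to 3′ on the strand of the gene, with the motifs named above in capitals (on the other strand CCAAT reads ATTGG, the letters TTTATA stand for the TATA box, and the letters CCGCCC for the GC box). For Pdk2, with 2 starts in RefSeq, the upstream one is shown.
Pdk3, chrX:93832151-93832400, minus strand: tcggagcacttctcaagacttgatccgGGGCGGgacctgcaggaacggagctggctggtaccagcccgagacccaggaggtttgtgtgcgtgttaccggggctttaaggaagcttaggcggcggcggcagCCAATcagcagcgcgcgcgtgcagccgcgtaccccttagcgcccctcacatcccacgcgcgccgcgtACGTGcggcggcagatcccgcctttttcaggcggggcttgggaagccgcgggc
Pdk2, chr11:95041372-95041621, minus strand: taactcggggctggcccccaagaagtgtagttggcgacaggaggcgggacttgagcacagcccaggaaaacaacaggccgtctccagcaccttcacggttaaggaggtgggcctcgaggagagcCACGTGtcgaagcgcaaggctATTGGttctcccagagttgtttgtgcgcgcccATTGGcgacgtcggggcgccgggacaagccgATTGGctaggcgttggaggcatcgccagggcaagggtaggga
Pdk4, chr6:5496279-5496528, minus strand: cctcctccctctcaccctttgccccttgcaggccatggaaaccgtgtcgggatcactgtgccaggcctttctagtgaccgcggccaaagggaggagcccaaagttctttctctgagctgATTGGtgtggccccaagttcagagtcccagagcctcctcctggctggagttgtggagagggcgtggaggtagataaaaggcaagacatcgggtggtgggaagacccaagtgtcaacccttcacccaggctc
Eno2, chr6:124769674-124769923, minus strand: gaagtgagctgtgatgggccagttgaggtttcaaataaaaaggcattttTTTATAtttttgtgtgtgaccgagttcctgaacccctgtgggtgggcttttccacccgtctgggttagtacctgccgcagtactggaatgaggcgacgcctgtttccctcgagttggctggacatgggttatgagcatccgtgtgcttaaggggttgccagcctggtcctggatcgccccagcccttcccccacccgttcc
Tigar, chr6:127109553-127109802, minus strand: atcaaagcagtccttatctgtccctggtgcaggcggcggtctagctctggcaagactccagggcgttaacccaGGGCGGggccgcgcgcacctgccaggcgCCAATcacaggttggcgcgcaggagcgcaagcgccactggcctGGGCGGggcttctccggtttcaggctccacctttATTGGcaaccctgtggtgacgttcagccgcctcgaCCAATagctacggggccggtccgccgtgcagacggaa
Pgls, chr8:71591934-71592183, plus strand: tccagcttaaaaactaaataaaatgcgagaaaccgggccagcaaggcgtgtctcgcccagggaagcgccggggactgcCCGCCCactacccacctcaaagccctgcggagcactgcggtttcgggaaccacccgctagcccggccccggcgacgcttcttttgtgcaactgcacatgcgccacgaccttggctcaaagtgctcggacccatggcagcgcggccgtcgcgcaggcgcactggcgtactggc
The Pdk3 stretch holds ACGTG starting 53 bases before the start site, CCAAT at 120 and GGGCGG at 223. Pdk2 has CACGTG at 126 and CCAAT at 105, 73 and 42. CCAAT also stands in Pdk4 at 131 and in Tigar at 149, 72 and 37, but not in Eno2 or Pgls. The TATAAA match of Eno2 lies on the other strand, 201 bases before the start site. Tigar carries GGGCGG at 177 and 106 and Pgls at 172. No motif of the 7 searched is shared by all 6.

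Of the 3 hexokinases, Hk1 and Hk3 had more counts in BMDM and Hk2 did not, and none of the gene sums passed. Hk1, the housekeeping hexokinase bound to mitochondria, had 420, 568 and 441 normalized counts in the 3 MG libraries, in the order of their numbers, against 811, 868 and 616 in BMDM. Every BMDM library lay above every MG library, the only gene of the 31 of which this held, where 6.87% of all genes did so. The log2 difference was 0.68 before the shift (limma adjusted p = 0.159) and 0.95 ± 0.28 (SE) relative to the median gene. Scaling by library totals gave a p of 0.0481, loess one of 0.0167 and equal medians one of 0.0138. Hk3, the hexokinase of myeloid cells, had means of 705 ± 100.2 in MG and 1006 ± 320 in BMDM (SD, n = 3 each), with 638 in BMDM 3 against 1214 and 1166 in the others. Its relative difference was 0.73 ± 0.30 (limma adjusted p = 0.396; 0.0344, 0.0127 and 0.0451 with the same 3 scalings). Hk2, the hexokinase that growth signals and hypoxia induce, had a promoter sum of 1560, 1198 and 1256 in MG against 1615, 1116 and 640 in BMDM. The groups overlapped, and the relative difference was -0.03 ± 0.39 (adjusted p = 0.637).

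The Hk1 sum turned on which peaks were counted as its own. A large peak over its RefSeq start (chr10:62339142-62341073, mm10) is annotated in the deposited table to Hk1os, the antisense gene there, and is therefore not in the sums above. It had 1622, 1130 and 1294 counts in MG and 1692, 1441 and 781 in BMDM, overlapping groups with a relative difference of 0.03 (limma adjusted p = 0.894). Assigned to Hk1, it raised the promoter sum to 1601 ± 212 in MG and 1607 ± 520 in BMDM (SD, n = 3 each), and brought the gene's difference to 0.41 (adjusted p = 0.827) and that of its promoter sum from 0.57 to 0.27. Inside the gene, 2 peaks were called higher in BMDM. The first, at chr10:62327349-62327917 over the start of an annotated internal transcript, had 34.9, 29.0 and 38.9 counts in MG and 186, 111 and 88.8 in BMDM. Relative to the median peak it was higher in BMDM by 1.95 ± 0.36 (limma adjusted p = 0.0281). The second lay in an intron at chr10:62277977-62278218, 12111 bp from the annotated start, with 3.97, 9.84 and 2.92 counts in MG and 29.8, 30.4 and 30.8 in BMDM. It was higher by 2.53 ± 0.59 (limma adjusted p = 0.0432), and in MG 3 it was at the level of 3 reads.

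Of the phosphofructokinases, the platelet form Pfkp also had overlapping groups at its start site and 2 peaks inside the gene that were called higher in BMDM. Its gene sum was 659, 1069 and 855 in MG and 1335, 1584 and 1027 in BMDM, where BMDM 3 lay below MG 2. The relative difference was 0.89 ± 0.30 (limma adjusted p = 0.240, and 0.0305 with equal medians). At its RefSeq start the peak chr13:6647033-6649276 had 439, 764 and 594 counts in MG and 803, 948 and 511 in BMDM (relative difference 0.46, adjusted p = 0.624). A peak of the promoter class, 2605 bp from an annotated start (chr13:6633490-6634045), had 26.2, 46.5 and 37.9 counts in MG and 129, 208 and 111 in BMDM. It was higher in BMDM by 2.11 ± 0.37 (limma adjusted p = 0.0262). An intron peak close by (chr13:6632461-6632798) had 10.3, 24.6 and 24.3 counts in MG and 127, 107 and 65.2 in BMDM, higher by 2.46 ± 0.44 (adjusted p = 0.0265). In both peaks every BMDM library lay above every MG library. Another intron peak (chr13:6643947-6644186) leaned the other way, with 71.4, 14.2 and 58.3 counts in MG and 9.92, 12.3 and 18.1 in BMDM (-1.38 ± 0.61, adjusted p = 0.153), and its groups overlapped. The summed monocyte and macrophage markers were also higher in BMDM (7239 to 13582, against 4831 to 6201 in MG). Cd44 alone held 7163 of the 13582 in BMDM 1 and 3195 of the 5621 in MG 1, and was not called (limma adjusted p = 0.215). Of the 11 such genes tested, 7 were called higher in BMDM. The part of the cell mixture in these peaks was not tested.

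These were the only calls among the 164 single peaks tested: 4 higher in BMDM and 0 higher in MG, where 5.33% and 1.54% of all peaks were called. At an unadjusted p under 0.05, 20 peaks leaned to BMDM and 12 to MG (15.3% and 9.58% of all peaks), and 34 were past 1 in size (26.3%). All BMDM libraries lay above all MG libraries in 24 peaks (17% of all) and below them in 17 (12.9%). Of the 34 peaks at an annotated start 1 was called for BMDM and 0 for MG (1.57% and 3.73% of all such peaks), and of the 130 others 3 and 0 were (6.11% and 1.08%). The median relative difference was -0.12 at starts and 0.24 elsewhere, beside -0.21 and 0.10 over all peaks. None of the 31 peaks over a RefSeq start of these genes was called. With voom weights the adjusted p of the 4 called peaks was between 0.0505 and 0.0770, and the calls ended. In that form limma called 0 of all 87944 peaks in either direction, and the smallest adjusted p was 0.05045. Without MG 3, BMDM 1 or BMDM 2, limma called 0 peaks in the genome (9831, 10421 and 8946 were then higher in BMDM at an unadjusted p under 0.05), and the 4 peaks kept differences of 1.64 to 2.66. Without BMDM 3 the smaller Hk1 peak also lost its call (adjusted p = 0.0963).

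**Figure D3:**
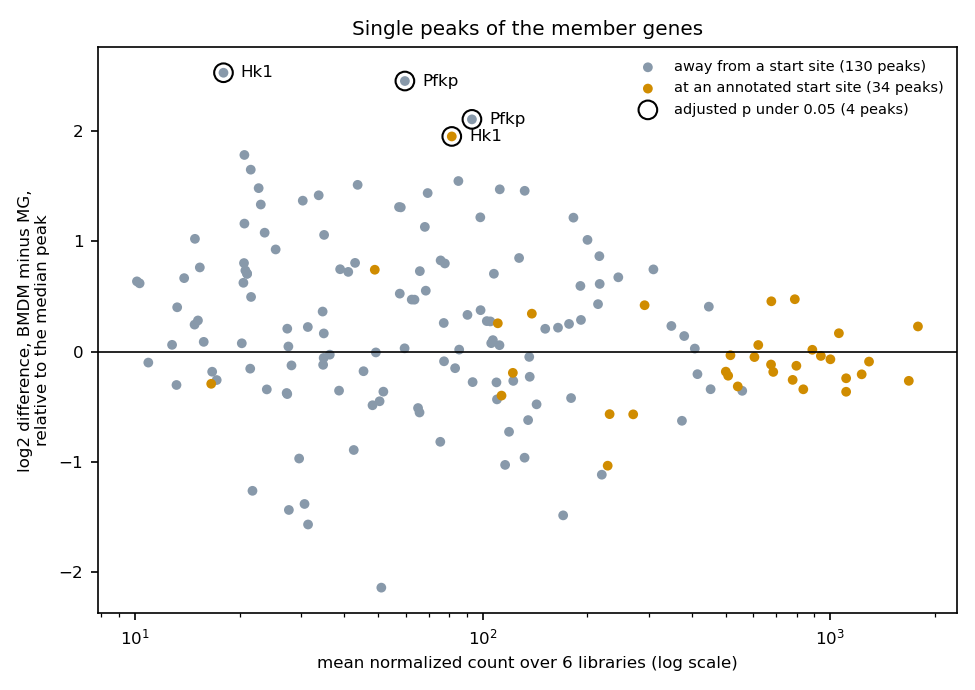
Each point is 1 of the 164 peaks, with its mean normalized count on a log axis and its log2 difference, BMDM minus MG, relative to the median peak. Peaks at an annotated start (orange) mostly have high counts and lie near 0; the 4 ringed peaks of Hk1 and Pfkp, with an adjusted p under 0.05, lie near 2 or above.

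**Figure D4:**
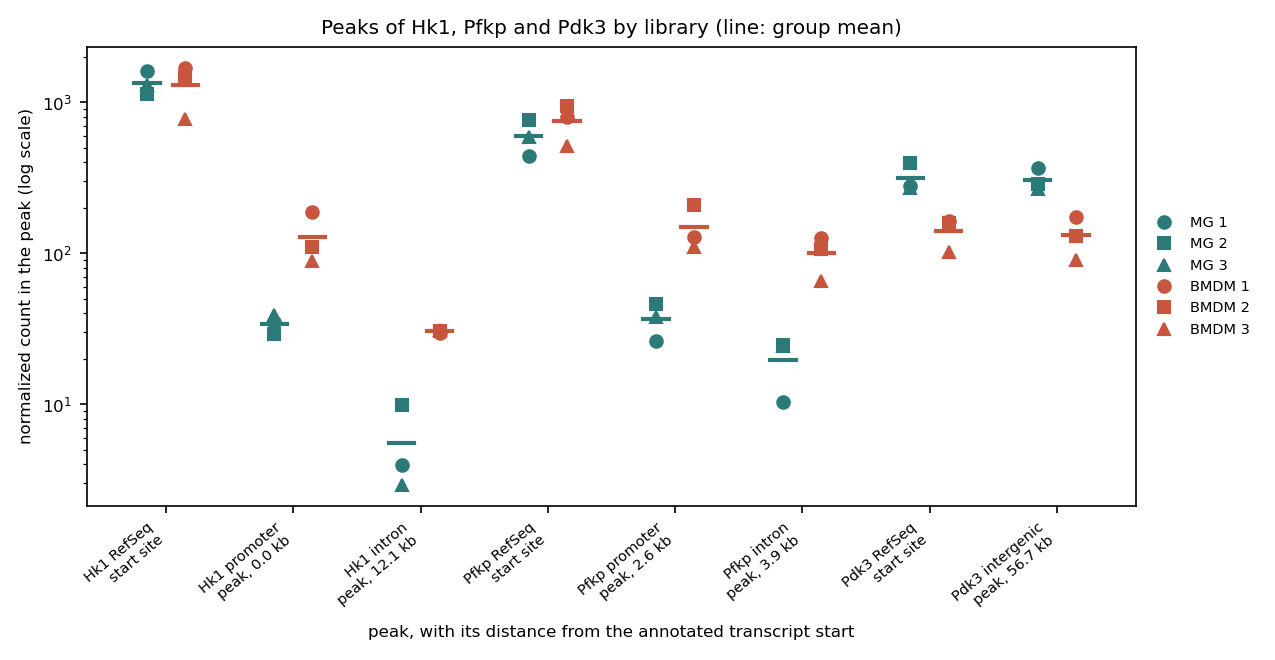
Normalized counts on a log axis, by library, in 8 peaks of Hk1, Pfkp and Pdk3, with a line at each group mean. The RefSeq start peaks of Hk1 and Pfkp overlap between MG (green) and BMDM (red), their 4 other peaks are higher in all BMDM libraries, and both Pdk3 peaks are higher in all MG libraries.

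In the authors' deposited table, 11 peaks of 5 genes had an adjusted p under 0.05 with higher values in BMDM (9.06% of all peaks), and 4 peaks of 3 genes with higher values in MG (5.38%). Beside the 4 peaks above and 3 more of Hk1 and Pfkp, the first set held peaks of Pgam1, Pfkfb3 and Pfkfb4. The second set held 2 peaks of Pdk3, 1 of Pfkm and 1 of Eno1. The authors' deposited table gives the Pfkm peak, in an intron at chr15:98098383-98099058, a log2 fold change of -2.58 and the Eno1 peak, at -8937 bp from the start (chr4:150226534-150227784), one of -1.96.

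Pfkm, the muscle phosphofructokinase, was the gene with the lowest relative difference, and the value moved with the MG library left out. Its sum was 86.5, 406 and 191 in MG and 103, 99.1 and 99.6 in BMDM, so that MG 1 lay below all BMDM libraries and MG 2 and MG 3 above them. The difference was -0.63 ± 0.43 (limma adjusted p = 0.236), -0.07 without MG 2 (adjusted p = 0.646) and -1.27 without MG 1 (adjusted p = 0.00046). In these last 2 fits limma relied almost wholly on the variance pooled over genes, so the spread of Pfkm barely enters its p-value. Without MG 1 it called 2245 of 18297 genes higher in MG. Its intron peak had 19.0, 169 and 73.9 counts in MG and 5.95, 9.71 and 29.0 in BMDM, and the upstream Eno1 peak had 84.9, 485 and 243 against 59.5, 73.8 and 76.1. In both, MG 2 was highest, MG 3 next and MG 1 lowest of the MG libraries. The oligodendrocyte factor gene Sox10 had the same order, with 65.1, 1102 and 518 in MG and 37.7, 55.7 and 83.3 in BMDM. So did the sum of the neural and glial markers. Of the genes tested in that list, Mbp, Rbfox3, Nova1 and Snap25 were instead highest in MG 1, and the others had the order of Sox10. The part of neural and glial cells in these values was not tested.

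The Pfkfb enzymes make or remove the sugar phosphate that activates phosphofructokinase, and Tigar, a p53 target, removes it and so favours the pentose phosphate pathway. Pfkfb3, the inducible form, had the largest promoter sum of all 30 genes, with 3560, 2113 and 2341 in MG and 2656, 2209 and 1250 in BMDM, spread over 4 peaks. Its groups overlapped (relative difference -0.11 ± 0.48, limma adjusted p = 0.644). Pfkfb4 had a gene sum difference of 0.61 ± 0.35 (adjusted p = 0.596), and Pfkfb2 of 0.06 ± 0.31. Tigar was lower in BMDM in every library, with a promoter sum of 344, 342 and 308 in MG against 200.4, 286 and 145 in BMDM. The log2 difference of this sum was -0.71 before the shift (limma adjusted p = 0.151) and -0.39 ± 0.32 relative to the median promoter.

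The aldolases and the enzymes of the lower pathway up to pyruvate kinase gave no call, and their groups overlapped apart from Eno2. Aldoa had 2310, 1210 and 1577 counts at its single promoter peak in MG and 2874, 1542 and 1207 in BMDM, a 2.38-fold range within BMDM. The relative difference was 0.41 ± 0.43 (limma adjusted p = 0.918). Pkm, whose M2 splice form marks proliferating and activated cells, had 2243, 1749 and 1641 in MG and 2107, 2314 and 1089 in BMDM (0.22 ± 0.44, adjusted p = 0.920). Gpi1, the isomerase after hexokinase, had a promoter sum of 668, 555 and 580 in MG against 613, 539 and 397 in BMDM (0.08 ± 0.33, adjusted p = 0.702). Tpi1, Gapdh, Pgk1 and Pgam1 had relative gene differences between -0.17 and 0.15, all with overlapping groups. Gapdh, a common reference gene, had means of 2037 ± 242 in MG and 1565 ± 547 in BMDM. Aldoc, the brain form of aldolase, had 58.7 counts in MG 1 and 147 and 121 in MG 2 and 3, against 92.4 to 141 in BMDM.

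The enolases act just before pyruvate kinase, and neither of those tested was called. Eno1, the general form, had a promoter sum of 1762, 1285 and 1370 in MG against 1712, 1517 and 966 in BMDM, with a relative difference of 0.21 ± 0.41 (limma adjusted p = 0.902), and one of -0.058 ± 0.31 in its gene sum (adjusted p = 0.563). Eno2, the form known as neuron-specific enolase, had a single peak, over its start, with 286, 302 and 274 counts in MG and 184, 174 and 170.3 in BMDM. The highest library exceeded the lowest by only 1.10 times within MG and 1.08 times within BMDM, and the groups were apart. The relative difference of the gene sum was -0.43 ± 0.28 (adjusted p = 0.145). Of the neural and glial markers, among which Eno2 was not counted, 6 of 13 were called higher in MG. The part of neural and glial cells in the Eno2 values was not tested.

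All 4 pyruvate dehydrogenase kinases had gene sums that were higher in every MG library than in any BMDM library, as were 21.5% of all genes. Together with Eno2, Rpia and Tigar they made up the 7 genes of the 31 of which this held. Pdk3 was the only kinase with a call. Its promoter had 281, 399 and 270.2 counts in MG and 163, 159 and 101 in BMDM. The log2 difference was -1.17 before the shift and -0.86 ± 0.33 relative to the median promoter (limma adjusted p = 0.00601). Its highest value was in MG 2, where the summed neural and glial markers were highest too. The next library was MG 1 for Pdk3 and MG 3 for those markers, and their part was not tested. With library totals, loess and equal medians the adjusted p was 0.107, 0.0774 and 0.0966, and without MG 2, MG 3 or BMDM 3 it was 0.0526, 0.0533 and 0.0709, so the call ended in each. Tested as a single peak (chrX:93831460-93832764), where each peak's own spread counts, the same region had an adjusted p of 0.0573. An intergenic peak at -56710 bp from the start (chrX:93888911-93890187) moved the same way, with 369, 289 and 266 counts in MG and 175, 131 and 90.6 in BMDM (-1.12 ± 0.33, adjusted p = 0.0508).

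The Pdk3 gene sum, over 9 peaks, was 808, 873 and 670 in MG and 593, 459 and 359 in BMDM (-0.49 ± 0.28, limma adjusted p = 0.125, and 0.0315 over peaks within 10 kb). Pdk1, a target of the hypoxia factor HIF, had 1235, 1075 and 1052 in MG and 1043, 886 and 625 in BMDM, so that BMDM 1 lay just below MG 3 (relative difference -0.15, adjusted p = 0.411). Pdk2, the widely expressed form, had a promoter sum of 1079, 896 and 896 in MG against 891, 811 and 444 in BMDM (-0.16, adjusted p = 0.442). Pdk4, the form that fasting and fatty acids induce, had a gene sum of 218, 138 and 138 in MG against 117, 72.5 and 121 in BMDM (-0.39 ± 0.35, adjusted p = 0.275). Its promoter peak held only 16.9 to 21.4 counts in MG and 11.9 to 15.5 in BMDM. Before the shift, the gene differences of Pdk1, Pdk2 and Pdk4 were -0.42, -0.46 and -0.66, beside -0.27 for the median gene.

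The pentose phosphate genes gave 0 calls among 7 genes at either level, where 2.14% and 3.51% of all genes and 2.75% and 9.16% of all promoters were called in BMDM and in MG, so that 7 genes are too few to tell them from the rest. Taldo1, the transaldolase, had the largest promoter sum of these over the 6 libraries, and Rpia the largest in every MG library. Taldo1 had 1461, 1013 and 1088 in MG and 1948, 1249 and 890 in BMDM (0.46 ± 0.39, limma adjusted p = 0.855). Rpia, which makes ribose phosphate, had a gene sum over 11 peaks of 2863, 2867 and 2474 in MG against 2075, 1973 and 1543 in BMDM, apart but with a relative difference of -0.29 ± 0.31 (adjusted p = 0.313). Pgls, the lactonase of the NADPH-producing branch, had a promoter sum of 641, 672 and 554 in MG against 530, 503 and 350 in BMDM (-0.14 ± 0.33, adjusted p = 0.436). G6pdx, the first and rate-limiting enzyme, had 689, 504 and 505 in MG and 512, 532 and 308 in BMDM at its single peak (gene sum -0.08 ± 0.29, adjusted p = 0.507). Pgd, Rpe and Tkt had relative gene differences between 0.07 and 0.36. Fbp1, the gluconeogenic phosphatase, had a gene sum of 149, 66.7 and 124 in MG against 176, 94.5 and 109 in BMDM (0.45 ± 0.38, adjusted p = 0.809).

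Ratios of isozyme genes within a library do not depend on how libraries are scaled to each other, so 15 pairs were compared by an exact two-sided permutation test, which with 3 and 3 libraries cannot go below p = 0.1. The log2 ratio of Pfkp to Pfkm was 2.93, 1.40 and 2.16 in MG and 3.69, 4.00 and 3.37 in BMDM, a mean shift of 1.52 (exact permutation p = 0.1, adjusted over the 15 pairs 0.25). The groups were also apart, with the same p, for Hk2 over Hk3 (a shift of -0.64), Pfkfb2 over Pfkfb4 (-0.54), Pfkfb3 over Pfkfb4 (-0.49), Eno1 over Eno2 (0.38) and Pdk1 over Pdk3 (0.33). No share over other gene pairs was computed to set beside these 6 of 15. Pairs that share a gene, such as those with Pfkfb4, are not independent. Of all single gene sums, 6.87% had every BMDM library above every MG library and 21.5% the reverse. The other 9 pairs overlapped, among them Aldoa over Aldoc with 3.04 to 5.30 in MG and 3.45 to 4.80 in BMDM. With promoter sums the shift of Pdk1 over Pdk3 was 0.78 in place of 0.33.

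**Figure D5:**
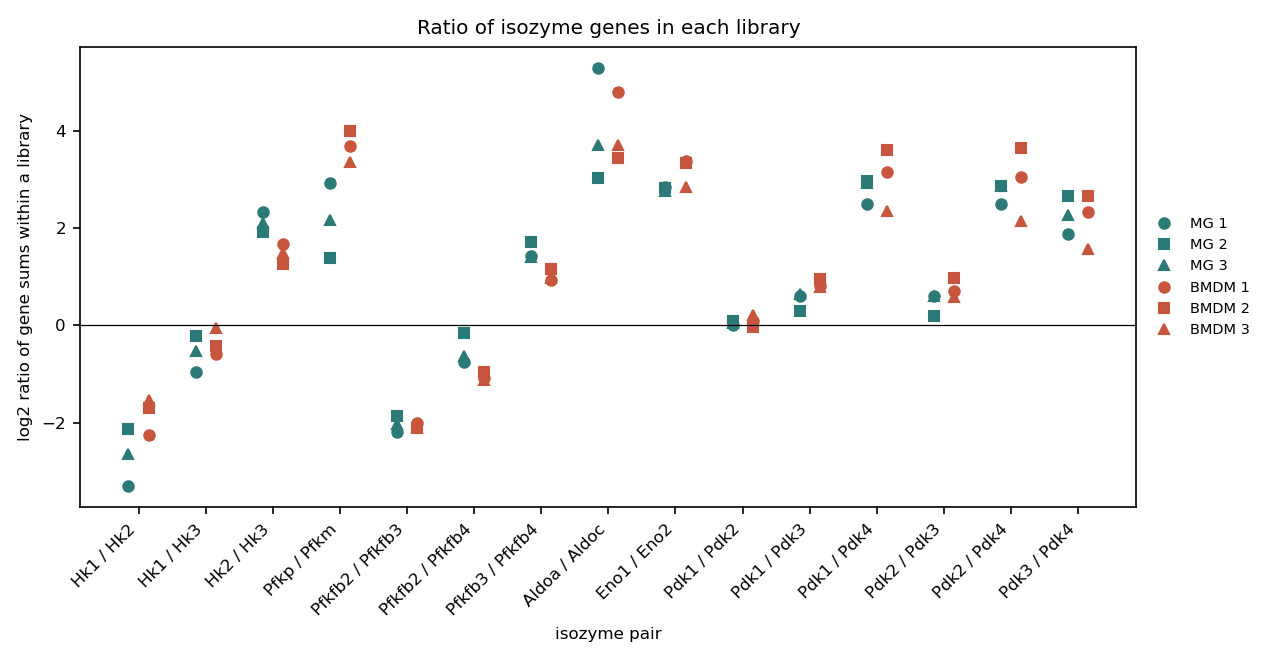
Log2 ratios of gene sums within each library for 15 isozyme pairs, MG in green and BMDM in red. Pfkp over Pfkm lies between 1.40 and 2.93 in MG and between 3.37 and 4.00 in BMDM; 9 of the 15 pairs overlap.

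Genes of neighbouring steps, in 4 further lists, gave 1 call in gene sums. Of 12 other glycolytic isoforms tested 0 were higher in BMDM and 1, Eno4, was higher in MG, with 816, 523 and 561 counts in MG and 379, 285 and 217 in BMDM (-0.84 ± 0.30, limma adjusted p = 0.0395). Bpgm, which makes the bisphosphoglycerate that loosens oxygen from haemoglobin, had a difference of -0.78 (adjusted p = 0.0699). Among 12 genes of gluconeogenesis and side branches, 7 other pentose and ribose phosphate genes and 10 of pyruvate entry, 0 were called in gene sums in either direction. In the last list Pdp1, the phosphatase that reverses the action of the Pdk kinases, had 136 ± 31.4 counts in MG and 267 ± 61.4 in BMDM (SD, n = 3 each), a difference of 1.25 ± 0.31 (SE, limma adjusted p = 0.0781). Of the 33 promoters of these lists 2 were higher in MG and 0 in BMDM, where 9.16% and 2.75% of all promoters were, so the share was not above the background. They were Eno4 and Prps2, a ribose phosphate pyrophosphokinase (-0.99 and -0.68 relative to the median promoter; adjusted p = 0.00116 and 0.0422).

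How the libraries ranked within the set was shared with the genome in part. BMDM 3 was the lowest of the 6 libraries for 24 of 31 gene sums (50.8% of all genes) and for 24 of 30 promoters (60.1%). MG 1 and MG 2 were the highest for 10 gene sums each (38.1% and 31.4% of all genes) and BMDM 1 for 8 (14.2%). The 8 with BMDM 1 highest were Hk3, Pfkfb4, Aldoa, Tpi1, Pgk1, Pgd, Taldo1 and Fbp1. These are the counts in these libraries, and no test was made of them.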

How the data were processed

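Accessible chromatin was measured in 3 MG and 3 BMDM libraries, grouped and numbered by the labels. Per the submitters' processing notes, the tools included cutadapt 1.8.1 and Bowtie2 2.4.1, and the build was mm10. Per the same notes the authors also used MACS2 2.1.1.20160309, DESeq2 1.36.0 and ChIPseeker 1.32.1; their settings, an offset of reads for Tn5 and the handling of duplicates were not given in the sources used here. Library columns of the authors' deposited table hold variance-stabilized log2 values, and its fold changes are log2 too, per the file headers. For each peak it adds a p-value, its adjusted form and the mean signal after normalization, deposited as the authors computed them. The deposited peak lists give a fold enrichment and a −log10 q per peak, the authors' own values; the −log10 q was used only as a filter.

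Inverting the stabilization gave normalized counts within 2.4e-06 (relative) of the deposited mean, and 100% were whole reads within 0.02 read after multiplying by the size factors. The table's other 8 per-sample columns could be tied to no sample here and stayed out. From 93084 lines, 155 repeats and 65 peaks without annotation were dropped, leaving 92864 peaks. ChIPseeker measured distances to annotated transcript starts, some of them inside genes, so a promoter class peak may be intragenic. Peaks were summed per gene within 100 kb and in the promoter class.

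The design foresaw a count model for raw counts; since the columns are log2 values, limma 3.58.1 (R 4.3.3) with a trend was fitted to log2(normalized count + 1) over 18246 genes, 15249 promoters and 87944 peaks with a mean of at least 10, with Benjamini-Hochberg adjustment over all of them and a threshold of 0.05. Because of the pseudocount, differences of low peaks come out too small. On simulated data of this depth the test recovered 28% of 2-fold and 97% of 4-fold changes for genes. It recovered 31% and 99% for promoters and 1% and 58.6% for peaks. There were 8, 9 and 3 false calls for genes, promoters and peaks. The simulation has no deviation shared within a library. It also gives all features of a level the same dispersion (variation beyond counting error), so these rates need not hold for the data. The members, gene lists and tests were chosen with earlier results of these data known. All 32 members are named; counts in every library are given for those called, those whose groups do not overlap, and the largest promoter of each step. Promoter sequences come from RefSeq (GRCm38.p6), which matched all 32 symbols. Alternatives changed the scaling, pseudocount, filter, block, weights, window and libraries. Python 3.11.15, pandas 2.3.3 and scipy 1.17.1 were used.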

Additional observations from a re-analysis of the deposited data

How the results depend on the processing

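Gene sums of the set gave 0 calls either way in the tests as reported. Higher in BMDM were 2 with library totals, 2 with loess (Hk1 and Hk3 in both) and 3 with equal medians (Pfkp added). Over all genes 562 of 18297, 1117 of 18246 and 895 of 18246 were then higher in BMDM. Higher in MG was 1 over peaks within 10 kb (Pdk3), and leaving out 1 library gave 0 to 1 (Pfkm without MG 1). Over all genes 1044 of 16802 were higher in MG within 10 kb, and 0 to 2245 with 1 library left out. Promoters gave 1 higher in BMDM with library totals, 1 with loess and 2 with equal medians (Hk3, then also Pfkp), and 1 with peaks within 1 kb (Hk1, 2.15). Over all promoters 382 of 15291, 752 of 15249, 639 of 15249 and 322 of 14102 were then higher in BMDM. The call of Pdk3 in MG became 0 under all 3 scalings, and leaving out 1 library gave 0 to 2. Higher in MG over all promoters were 301, 461 and 224 under the 3 scalings, and 496 to 1846 with 1 library left out. Single peaks gave 11 higher in BMDM with library totals, 10 with loess and 0 with voom. Over all peaks it was 6994 of 88876, 6950 of 87944 and 0. Higher in MG were 2 with library totals, 2 with loess and, with a pseudocount of 5, 1. Over all peaks it was 1126, 2305 and 1402. Leaving out 1 library gave 0 to 18 and 0 to 14 peaks, where it gave 0 to 10640 and 0 to 11306 over all peaks. The cause of these changes was not tested; limma relied almost wholly on the pooled variance in gene sums with the replicate block or when MG 1 or MG 2 was left out, and for promoters except under the 3 scalings, with voom weights and without BMDM 3. With an overlap of at least 0.5 of the table's peak, 11 promoters were in all 6 lists in place of 26; with −log10 q of at least 5 it was 25.

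The replicate numbers were no sure pairing: deviations of same-numbered libraries correlated at 0.55, -0.16 and 0.45, and MG 2 correlated best with BMDM 3 (0.55). With the replicate block, 1 gene sum was higher in BMDM (Hk1) and 2 in MG (Pdk3 and Pfkm), and 14 single peaks were higher in BMDM and 6 in MG. The block called 912 of all 18246 genes higher in BMDM and 2333 in MG, and 9212 and 5215 of all 87944 peaks.

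Relative differences that changed sign were small and not called. In gene sums they were G6pdx (0.00682), Hk2 (-0.11) and Pfkfb3 (-0.15) with loess, and Gpi1 (0.00077), Hk2 (-0.0877) and Pfkfb3 (-0.0582) within 10 kb. With 1 library left out, gene sums ranged from -0.0767 to 0.67 for Aldoc, -0.17 to 0.0137 for G6pdx, -0.10 to 0.0297 for Gpi1, -0.0906 to 0.23 for Hk2, -0.0461 to 0.19 for Pfkfb2, -0.00995 to 0.26 for Pfkfb3, -0.0538 to 0.36 for Pgam1, -0.0014 to 0.25 for Pgk1, -0.0233 to 0.14 for Pgls and -0.0935 to 0.21 for Tpi1. For promoters G6pdx had 0.0418 with loess, and the ranges were -0.0601 to 0.75 for Aldoc, -0.11 to 0.0234 for G6pdx, -0.25 to 0.0127 for Gapdh, -0.22 to 0.14 for Hk2, -0.17 to 0.015 for Pdk1, -0.33 to 0.11 for Pdk4, -0.21 to 0.0222 for Pfkfb3, -0.76 to 0.29 for Pfkm and -0.012 to 0.27 for Tpi1.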
